A study of Homo sapiens with 26 samples.

Results

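Clone 1, a single BET-inhibitor-tolerant clone derived from A375 cells, was compared with parental A375 cells after both had been exposed to 1 uM CPI203 for 6 h. The genes described are the 15243 of 63129 in the deposited expression table that reached 1 FPKM or more in at least 2 of the 4 libraries of these groups. FPKM counts the fragments of a gene, scaled for transcript length and for the number of fragments mapped. The member with the lowest value on this rule had a second-highest level of 1.00074 FPKM, and the highest gene outside it 0.99974 FPKM. By annotation 11417 members are protein coding and 2242 are processed pseudogenes, whose reads can be shared with their parent genes.

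BET proteins bind acetylated histone tails through paired bromodomains and recruit the elongation factor P-TEFb to active genes. CPI203 is a small molecule that occupies the acetyl-lysine pocket of these bromodomains and displaces BET proteins from chromatin. A tolerant cell keeps growing in an inhibitor that stops or kills its parent, and what it expresses while the inhibitor is present differs from what it expresses in vehicle or without treatment.

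The series holds 26 libraries of RNA sequencing in groups of 2, of which 18 are from A375, an established human melanoma line with mutant BRAF. The groups used here are parental cells, clone 1 (Resistant1 in the titles) and clone 4, another tolerant clone, each untreated at 0 h, after 6 h in DMSO and after 6 h in 1 uM CPI203. Each clone is 1 clone, so features of the clone and features of tolerance cannot be told apart. The labels do not say whether the 2 replicates of a group were separate cultures, so every p-value here reflects the spread between sequenced libraries, part of which may be technical. One label field of the untreated clone libraries says parental, and the title was followed.

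The 4 libraries of the comparison were alike in size, with FPKM summing to 526445 to 531009 and 14786 to 14847 genes at 1 FPKM or more. Their replicates were the closest of all 9 A375 groups, with a median absolute log2 difference of 0.0628 in clone 1 and 0.0721 in parental cells. In parental DMSO cells and in clone 4 under DMSO and CPI203 that difference was 0.2227 to 0.2961, and 1 library of each stands apart, replicate 1 in both DMSO groups and replicate 2 of clone 4 under CPI203. The values carry no read counts, so the depth is unknown and no counting interval can be given. The A375 lineage genes SOX10, S100B and MITF were present in every library compared. Of the melanosome genes, TYR, TYRP1, DCT, PMEL, MLANA and GPR143 were under the filter. Fibroblast markers (8 genes) and erythroid and megakaryocytic markers (6 genes) had no member among the 15243, and their summed levels were at most 2.67 and 0.505 FPKM in any of the 4 libraries.

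Under CPI203 clone 1 differed from parental cells in 3829 genes (25.1% of those tested), of which 1922 were higher (12.6%) and 1907 lower (12.5%). A gene is said to have passed at an adjusted p below 0.05 in limma, with the Benjamini-Hochberg adjustment over all 15243 genes, and higher, lower, rose and fell refer to clone 1 against parental cells. Differences are given on the log2 scale of FPKM + 1 with their standard error, a scale that understates folds of genes near or under 1 FPKM. Differences of at least 1 log2 unit passed in 418 genes upward (2.74%) and 406 downward (2.66%). The libraries of clone 1 and parental cells did not overlap in 77.3% of genes tested, so a lack of overlap alone is common here. With 1 of the 4 libraries left out, 2269 genes (without clone 1 replicate 1) to 2376 (without parental replicate 1) passed. An exact two-sided permutation test of 2 libraries against 2 cannot go below p = 0.333. The calls therefore rest on the limma model, whose spread was estimated over all A375 libraries and moderated across genes. With only the 4 compared libraries in the fit 8162 genes passed, 3822 of the 3829 among them.

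Most of what separated the lines under CPI203 also separated them in vehicle. In DMSO 1759 genes were higher in clone 1 (11.5%) and 1863 lower (12.2%), from libraries that the CPI203 comparison does not use; without clone 1 DMSO replicate 1 or 2 the total of 3622 was 2321 or 2409. Of the 3829 genes that differed under CPI203, 2540 (66.3%) passed in the same direction in DMSO, and 3693 (96.4%) had the same sign. That is 68.4% of the genes higher and 71.8% of those lower in DMSO. Another 1275 genes did not pass in DMSO, and of these 30 passed the test of the difference between the CPI203 and DMSO comparisons. Only 14 genes passed in both with opposite signs. In untreated cells 2643 genes were higher (17.3%) and 4488 lower (29.4%), where the median of all genes was -0.102, and 2006 of the 3829 (52.4%) passed the same way in all 3 conditions.

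**Figure D1:**
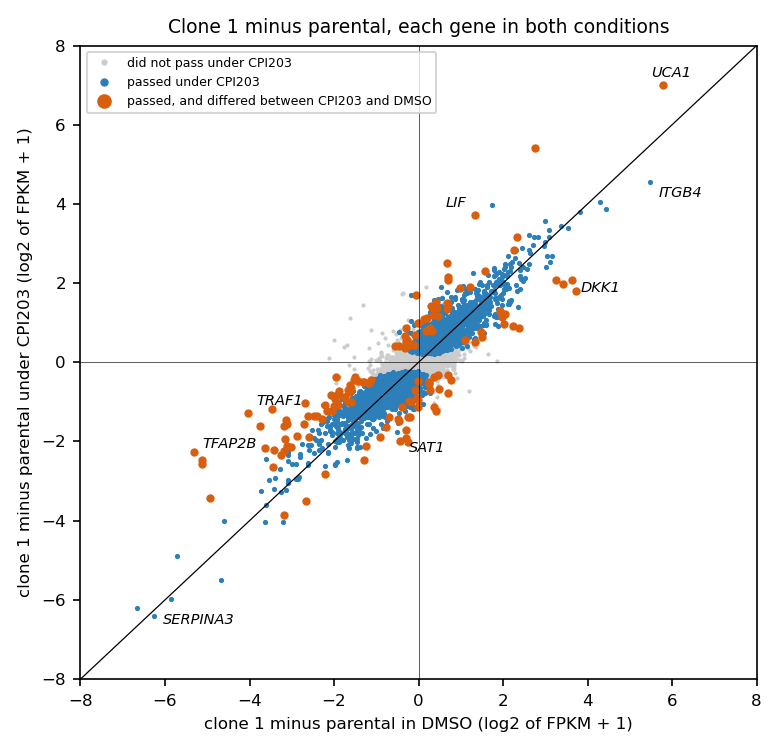
Difference between clone 1 and parental A375 cells in DMSO (x axis) against that under CPI203 (y axis), both as log2 of FPKM + 1, with 1 point for each of the 15243 genes. Of the 3829 genes that passed under CPI203, 3693 had the same sign in DMSO. Some genes far from 0 lie well off the diagonal, such as TFAP2B (-5.32 in DMSO and -2.25 under CPI203) and LIF (1.33 and 3.73). The difference between the comparisons passed and was at least 1 in size for 72 genes.

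The gene most raised in clone 1 was UCA1 (ENSG00000214049, hg19 chr19:15939757-15947130), a long non-coding RNA first described in urothelial carcinoma. Under CPI203 it was at 196 and 193 FPKM in the clone 1 libraries and at 0.437 and 0.626 in the parental ones, a difference of 7.0 ± 0.14 (adjusted p = 6.08e-12, limma). In DMSO it was at 70.6 and 72.3 against 0.383 and 0.237, and untreated at 433 and 407 against 0.653 and 0.320. The clone 1 libraries were thus far above the parental ones in all 3 conditions, and within clone 1 the untreated level was the highest and the DMSO level the lowest. AC004510.2, annotated just past the end of UCA1, was at 42.2 and 43.1 FPKM against 0 and 0.0566 (5.41 ± 0.25, adjusted p = 7.79e-09). Without a stated strand, reads of these neighbours cannot be told apart.

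Next among the raised genes was ITGB4 (chr17:73717408-73753899), the integrin chain that pairs with integrin α6 and anchors epithelial cells to laminin. It was at 33.4 and 31.5 FPKM against 0.239 and 0.613 in parental cells (4.56 ± 0.16, adjusted p = 7.23e-10, limma), and its DMSO difference was 5.49. LIF (chr22:30636436-30642840), a cytokine of the interleukin-6 family, was at 48.2 and 53.2 FPKM against 3.38 and 2.46 (3.73 ± 0.12, adjusted p = 4.01e-10). Its clone 1 level was 48.9 and 52.9 in DMSO, overlapping that under CPI203, and lower untreated (37.4 and 36.8), while the parental level was 38.3 and 39.2 untreated and 18.2 and 21.1 in DMSO. The difference in LIF was thus -0.06 in untreated cells, 1.33 in DMSO and largest under CPI203. GDA, which deaminates guanine, was at 21.9 and 20.1 FPKM against 0.310 and 0.332 (4.06 ± 0.12). CD33, a sialic-acid-binding receptor known from myeloid cells, was at 20.5 and 20.6 against 0.454 and 0.5 (3.87 ± 0.14). MGLL, which hydrolyses monoacylglycerols, was at 31.6 and 31.1 against 1.63 and 1.87 (3.56 ± 0.14). These genes did not overlap between the lines, and GDA and CD33 were as far apart in DMSO (4.30 and 4.44).

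The cancer-testis genes PAGE1 (3.45) and SPANXC (3.38) were also among the 12 largest rises, and SPANXC has close copies between which reads may be split. The entry RP11-290L1.3 passed with 28.8 and 30.0 FPKM against 0.0711 and 2.47 (3.98 ± 1.30, adjusted p = 0.0401). Its parental libraries were thus far apart from each other, as were those of clone 1 in DMSO (1.23 and 21.3 FPKM). It lost the call when any of the 4 libraries was left out, with differences of 3.13 to 4.83.

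The gene most lowered was SERPINA3 (chr14:95058395-95090983), the secreted protease inhibitor α1-antichymotrypsin. Parental cells had 500 and 517 FPKM and clone 1 had 4.94 and 5.10 (-6.40 ± 0.11, adjusted p = 2.53e-12, limma). FDCSP, a small secreted protein, was at 124 and 112 FPKM in parental cells and 0.742 and 0.492 in clone 1 (-6.21 ± 0.19). S100A1, a calcium-binding protein, was at 286 and 279 against 3.71 and 3.25 (-5.98 ± 0.21). In each of these genes every parental library exceeded every clone 1 library, also in DMSO and untreated. HAPLN1, which links hyaluronan to proteoglycans, was at 59.9 and 66.8 FPKM in parental cells and 1.07 and 1.25 in clone 1 (-4.90 ± 0.19). TIMP1 (chrX:47441712-47446188), an inhibitor of matrix metalloproteinases, was at 2580 and 2582 FPKM in parental cells and at 157 and 158 in clone 1 (-4.03 ± 0.18, adjusted p = 6.51e-09). GSTM3, a glutathione transferase, was at 15.9 and 16 against 0.0193 and 0.0356 (-4.04 ± 0.16). The other 6 of the 12 largest falls were SPRR2D (-5.50), FXYD3 (-4.02), TAC1 (-3.86), TESC (-3.61), RNF128 (-3.51) and DHRS3 (-3.43), which all passed in DMSO too.

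**Figure D2:**
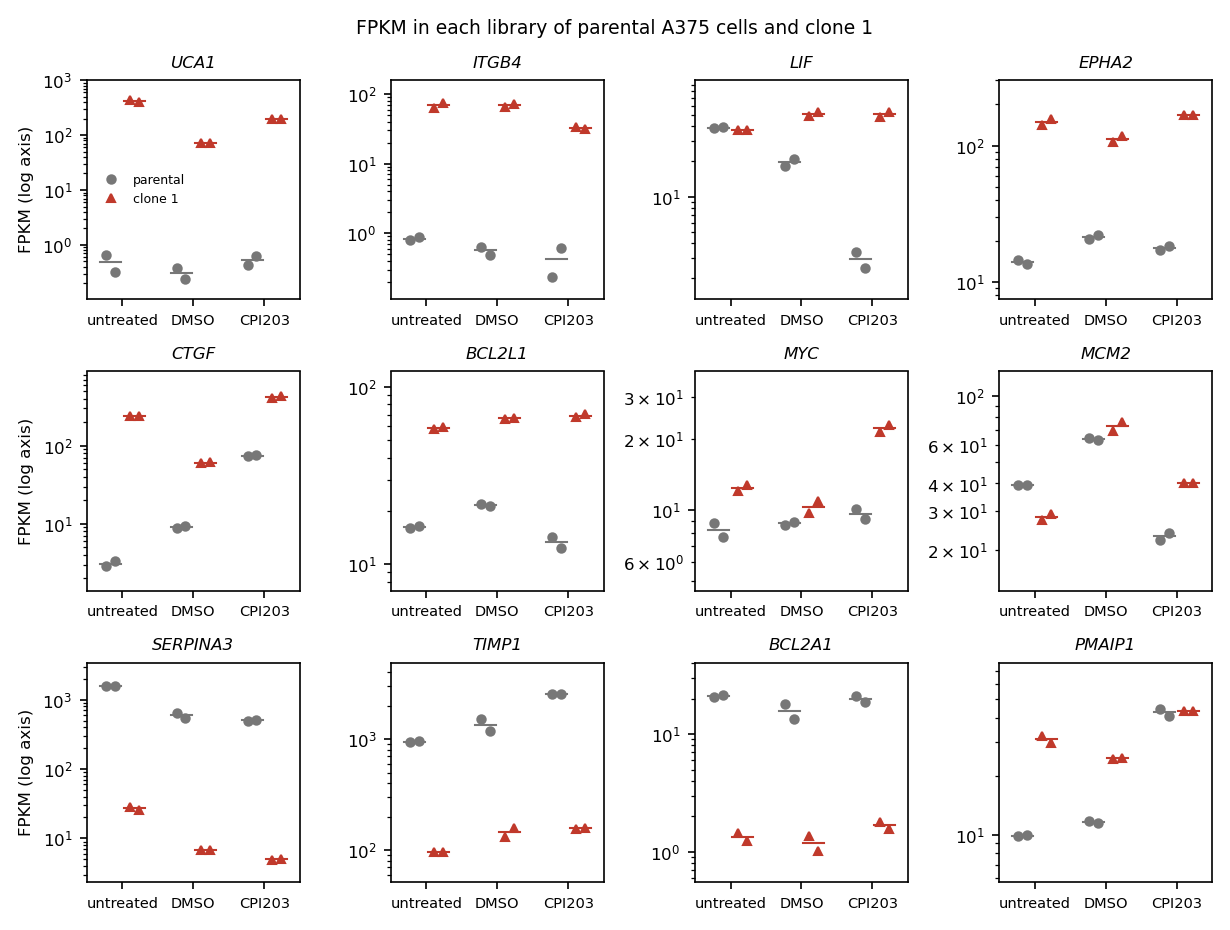
FPKM of 12 genes (log axis) in each library of parental A375 cells and clone 1, untreated, in DMSO and under CPI203, with a line at the mean of each group of 2. UCA1, ITGB4 and SERPINA3 are apart in every condition, LIF parts only where the parental level drops, and PMAIP1 meets at 40.8 to 44.4 FPKM under CPI203.

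Genes of the BCL2 family, which set the threshold of mitochondrial apoptosis, shifted in both directions. BCL2L1 (chr20:30252255-30311792), which encodes the survival protein BCL-XL, was at 67.9 and 70.2 FPKM in clone 1 and 14.2 and 12.4 in parental cells (2.30 ± 0.08, adjusted p = 6.13e-10, limma). In DMSO it was at 66.3 and 66.8 against 21.9 and 21.2, so the clone held its level and the parental level was lower under the inhibitor. The difference between the 2 comparisons was 0.71 ± 0.12 (adjusted p = 0.00819) and did not pass without parental CPI203 replicate 2 (0.62) or clone 1 CPI203 replicate 2 (0.69). BCL2A1, another survival member, went the other way, at 1.81 and 1.55 FPKM against 20.8 and 18.8 (-2.96 ± 0.15, adjusted p = 1.15e-08). MCL1 was at 134 and 141 against 239 and 236 (-0.78 ± 0.13, adjusted p = 0.000573). BCL2 passed at low levels of 1.93 and 2.38 against 1.21 and 1.04 (0.57, adjusted p = 0.0356), a call lost when any of the 4 libraries was left out (0.47 to 0.67), and BCL2L2 did not pass (0.35). Of the 5 measured anti-apoptotic genes 2 rose and 2 fell, where 12.6% of all genes rose and 12.5% fell.

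The BH3-only proteins trigger apoptosis by binding these survival proteins. BBC3 (PUMA) was at 6.64 and 7.55 FPKM in clone 1 and 2.46 and 3.0 in parental cells (1.12 ± 0.23, adjusted p = 0.00328, limma). PMAIP1 (NOXA) did not separate the lines under CPI203, at 43.3 and 43.3 against 44.4 and 40.8 (0.02 ± 0.09, adjusted p = 0.883). In DMSO it was at 24.7 and 24.8 against 11.8 and 11.4 (1.03), so the parental level met that of the clone only in the inhibitor (difference -1.0, adjusted p = 0.000893). BID passed at 16.7 and 16.6 against 11.1 and 12.7 (0.46, adjusted p = 0.0114), but not without parental replicate 1 (0.37) or either clone 1 replicate (both 0.46). BAD passed (0.95) and lost the call when any of the 4 libraries was left out, and BCL2L11 (BIM) did not pass (0.14). BMF was under the filter. Among the effectors BAX rose, at 129 and 137 FPKM against 70.7 and 67.2 (0.94 ± 0.17, adjusted p = 0.00104), BOK rose (0.95), and BAK1 did not pass (0.18). CYCS, cytochrome c, was higher (0.39) and DIABLO, which antagonises inhibitors of apoptosis, lower (-0.40), and each lost its call with some libraries left out. Of the 6 effector genes 3 rose and 1 fell, where 12.6% of all genes rose and 12.5% fell. Among death receptors and ligands 3 of 9 rose and 2 fell, with TNFRSF21 at 1.54, TNFRSF10A at 1.19 and TNFRSF1A at -0.86. Of 10 caspases and inhibitors of apoptosis BIRC3 (1.69), BIRC5 (0.59) and BIRC2 (0.38) rose and CASP9 fell (-0.65). BIRC2 did not pass without clone 1 replicate 1 (0.31).

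Genes by which BET inhibition is usually read were compared next. HEXIM1, the inhibitor of P-TEFb that rises when BET proteins are displaced, was at 61.9 and 60.3 FPKM in treated parental cells and 44.0 and 44.9 in treated clone 1 (-0.45 ± 0.09, adjusted p = 0.00235, limma). In DMSO the lines were at 19.5 and 20.0 against 19.9 and 21.4, and the difference between the comparisons did not pass (-0.51, adjusted p = 0.0903). In untreated cells HEXIM1 was higher in clone 1, at 29.1 and 32.2 FPKM against 17.9 and 17.9 in parental cells (0.745, adjusted p = 1.65e-05). BRD2, a BET protein, was lower (-0.40, adjusted p = 0.0136), a call lost when any of the 4 libraries was left out (-0.42 to -0.38). Untreated it was higher in clone 1 (0.555, adjusted p = 0.000778). MYC, a growth-promoting transcription factor, was at 21.5 and 22.9 FPKM in clone 1 and 10.1 and 9.11 in parental cells (1.13 ± 0.11, adjusted p = 4.28e-06). In DMSO the lines did not separate by the test (0.21, adjusted p = 0.188), but untreated MYC was higher in clone 1 (0.544, adjusted p = 0.000864). The MYC difference of 0.92 between the CPI203 and DMSO comparisons passed (adjusted p = 0.00771). It did not pass without parental CPI203 replicate 2 (0.85), clone 1 DMSO replicate 1 (0.84) or clone 1 CPI203 replicate 2 (0.88). Of the 14 BET and P-TEFb genes measured 1 rose (ELL2, an elongation factor, 1.39) and 2 fell. Of 10 genes of the MYC network MYC rose and MXI1 fell (-0.84). Over all genes 12.6% rose and 12.5% fell.

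Genes of DNA replication had the largest share in 1 direction of all lists with 5 or more measured members. Of 29 measured E2F targets and replication factors 24 were higher in clone 1 and 0 lower, with a median of 0.59 against 0.01 over all genes and 12.6% of all genes higher. At an unadjusted p below 0.05 the counts were 25 and 0. Among them is E2F1, the transcription factor that drives entry into S phase, at 32.5 and 32.2 FPKM against 11.8 and 11.9 (1.38 ± 0.14, adjusted p = 9.17e-06, limma). The helicase subunits MCM2, MCM3 and MCM5 unwind replication origins. MCM2 was at 40.1 and 40.3 FPKM against 22.1 and 23.9 (0.78 ± 0.08), MCM3 at 54.5 and 58.1 against 32.3 and 31.9 (0.79 ± 0.07), and MCM5 at 39.7 and 45.0 against 21.7 and 24.1 (0.86 ± 0.09). UHRF1, which maintains DNA methylation behind the fork, was at 32.6 and 33.1 against 15.6 and 15.1 (1.05 ± 0.10), and TYMS, which makes thymidylate, rose by 0.74. The members that did not pass were RRM1, CDC6, RFC3, POLA1 and POLE2 (0.01 to 0.25).

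In DMSO 10 of the 29 replication genes were higher and 0 lower (15 and 2 at an unadjusted p below 0.05), with a median of 0.21, against 11.5% and 12.2% of all genes, and 4 to 8 were higher with 1 library left out. Each of these 10 was also higher under CPI203. In untreated cells 3 were higher and 11 lower, with a median of -0.21, but 6 to 8 were higher and 8 to 9 lower with 3 other scalings (medians -0.08 to -0.03), and 7 to 9 were lower with 1 library left out. Over all genes 17.3% were higher and 29.4% lower in untreated cells, with a median of -0.102. As an example, MCM2 was at 27.3 and 29.1 FPKM in untreated clone 1 against 39.2 and 39.3 in parental cells. In DMSO it was at 69.4 and 75.9 against 64.6 and 63.2, and under CPI203 at the levels above. Thus both lines had more MCM2 in DMSO than untreated, and under CPI203 the parental level was below its untreated level while that of the clone was not. The difference between the CPI203 and DMSO comparisons passed for 3 members, MCM2 (0.60), MCM3 (0.47) and MCM5 (0.59), where 0.728% of all genes passed upward and 0.407% downward. MCM3 did not keep that call when any 1 of the 8 libraries was left out, and MCM2 lost it in 6 of these 8 omissions; MCM5 was not run. With 1 library of the CPI203 comparison left out, 17 to 19 of the 29 were higher. Of 24 mitosis genes 7 rose and 0 fell (9 and 0 at an unadjusted p below 0.05, median 0.20), among them CCNB2 (0.61), CCNA2 (0.48) and PRC1 (0.58). Without the 3 libraries that stand apart 12 rose, and 6 to 11 with 3 other scalings. Of 16 regulators of G1 6 rose and 3 fell, and 2 rose with any 1 of the 4 libraries left out. Over all genes 12.6% rose and 12.5% fell under CPI203. With all 4 libraries CCND1 (1.12) and CCNE1 (0.94) rose and the inhibitors CDKN1C (-1.32) and CDKN1B (-0.58) fell.

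**Figure D3:**
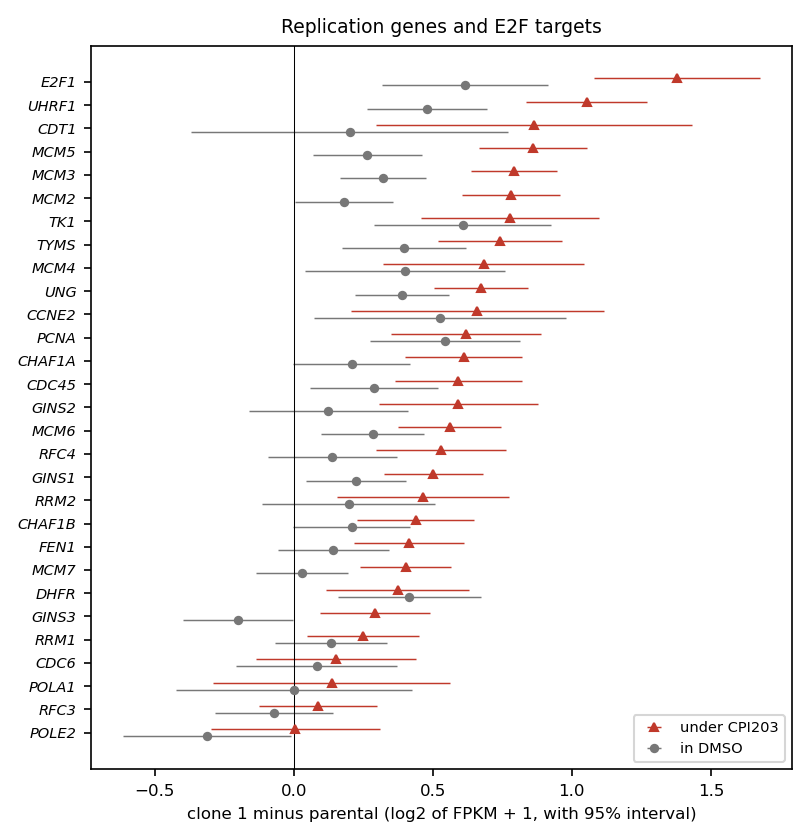
Difference between clone 1 and parental cells (log2 of FPKM + 1, with 95% intervals from limma) for the 29 replication genes under CPI203 and in DMSO. Under CPI203 24 of the 29 passed, all higher in clone 1, and in DMSO 10 did.

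The promoters of 2 replication genes are shown because 24 of the 29 members of the list moved in the same direction. Each runs from 250 bases before to 50 bases after the start in RefSeq (GRCh38.p14), on the minus strand, with matches to an E2F core in capitals. The core was searched on both strands as TTCCCGC, as the form TTCGCGC, as the form TTGGCGC and as the form TTGCCGC. MCM3 lies at chr6:52284693-52284992 and E2F1 at chr20:33686336-33686635 in that build.
MCM3: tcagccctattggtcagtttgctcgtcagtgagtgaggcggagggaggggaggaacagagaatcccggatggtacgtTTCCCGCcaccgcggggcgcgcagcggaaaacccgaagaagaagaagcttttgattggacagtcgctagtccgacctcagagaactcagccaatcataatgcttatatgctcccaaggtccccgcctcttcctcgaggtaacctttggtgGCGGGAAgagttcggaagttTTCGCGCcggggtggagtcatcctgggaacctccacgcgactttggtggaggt
E2F1: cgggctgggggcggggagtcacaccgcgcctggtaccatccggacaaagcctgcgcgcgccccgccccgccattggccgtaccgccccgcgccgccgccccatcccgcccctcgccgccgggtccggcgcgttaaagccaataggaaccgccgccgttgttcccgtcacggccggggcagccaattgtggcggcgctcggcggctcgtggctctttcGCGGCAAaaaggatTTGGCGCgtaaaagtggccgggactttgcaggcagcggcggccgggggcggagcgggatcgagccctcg
MCM3 has 3 matches, which begin 173, 23 and 3 bases before the start, and E2F1 has 2, at 33 and 19 bases. Among the 25 replication genes with a tabulated promoter, 23 had a match in at least 1 promoter (92.0%), against 25.4% of the 9830 members of the comparison with one. By promoter the shares were 26 of 35 (74.3%) against 2766 of 14322 (19.3%). The list was drawn up as E2F targets and replication factors, and these shares take all its members, passed or not. A high share of matches therefore follows from the choice of list and says nothing about clone 1. A match describes the letters and does not show that a factor was bound.

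Targets of YAP and TEAD, the transcription factors at the end of the Hippo pathway, were another group in which most members that passed had 1 direction. Of 17 measured targets 10 were higher and 1 lower (CCDC80, -0.99), with a median of 0.81. Over all genes 12.6% were higher and 12.5% lower. CTGF (chr6:132269316-132272513), a secreted matricellular protein, was at 410 and 433 FPKM in clone 1 and 74.0 and 75.2 in parental cells (2.48 ± 0.08, adjusted p = 2.29e-10, limma). Its DMSO levels were 59.3 and 62.1 against 8.88 and 9.41 (2.61), and its untreated levels 240 and 240 against 2.85 and 3.30 (5.89). CTGF was therefore higher under CPI203 than in DMSO in both lines, and the 2 comparisons did not differ by the test (-0.12, adjusted p = 0.874). CYR61, of the same protein family, was at 213 and 221 FPKM against 30.2 and 29 (2.83 ± 0.08). ANKRD1, a nuclear ankyrin-repeat protein, was at 5.93 and 6.04 against 0.0630 and 0.0994 (2.69 ± 0.09), and AMOTL2, which binds YAP at cell junctions, at 72.4 and 76.4 against 12.7 and 12.2 (2.49 ± 0.12). None of these 4 genes overlapped between the lines in any condition. FJX1 (2.25), AJUBA (2.17), CRIM1 (1.86), TEAD4 (0.81) and F3 (0.48) rose too. In DMSO 10 rose and 1 fell, against 11.5% and 12.2% of all genes. Of the 11 targets that passed under CPI203, 10 passed the same way in DMSO, where 66.3% of all such genes did.

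Promoters of CTGF (CCN2 in RefSeq, chr6:131951323-131951622) and ANKRD1 (chr10:90921038-90921337) are given in the same window, build and strand, as examples of targets that rose in all 3 conditions. Capitals mark the TEAD core GGAATG, searched on both strands.
CTGF: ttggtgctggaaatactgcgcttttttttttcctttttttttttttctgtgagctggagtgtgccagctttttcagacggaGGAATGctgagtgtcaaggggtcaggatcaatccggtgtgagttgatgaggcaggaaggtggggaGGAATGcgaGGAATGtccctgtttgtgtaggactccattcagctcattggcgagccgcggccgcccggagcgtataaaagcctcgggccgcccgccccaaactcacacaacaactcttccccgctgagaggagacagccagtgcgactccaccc
ANKRD1: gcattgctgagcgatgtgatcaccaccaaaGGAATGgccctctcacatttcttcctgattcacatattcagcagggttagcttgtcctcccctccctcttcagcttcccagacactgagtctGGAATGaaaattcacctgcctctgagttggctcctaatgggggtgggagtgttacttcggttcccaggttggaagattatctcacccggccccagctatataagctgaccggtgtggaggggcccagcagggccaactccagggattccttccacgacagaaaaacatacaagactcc
CTGF has 3 matches, which begin 169, 104 and 95 bases before the start, and ANKRD1 has 2, at 220 and 128 bases. A match was found in 7 of the 12 targets with a promoter in the table (58.3%) and in 14.8% of the 9830 members with one. By promoter the shares were 46.7% and 11.4% in the same order. The other 5 targets had no match in these windows.

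Receptor tyrosine kinases changed in both directions. EPHA2, an ephrin receptor (chr1:16450832-16482582), was at 166 and 166 FPKM in clone 1 and 17.2 and 18.3 in parental cells (3.16 ± 0.10, adjusted p = 2.29e-10, limma). AXL, the receptor of GAS6, was at 208 and 204 against 43.0 and 44.1 (2.22 ± 0.09), and EGFR at 7.90 and 6.75 against 2.35 and 2.21 (1.34 ± 0.24). These 3 were separate in DMSO as well (2.32, 1.65 and 1.55). DDR1, a collagen receptor, (1.34), KDR (0.97) and EPHB4 (0.45) rose. EPHB2 (-2.10), FGFR4 (-1.29), FLT1 (-1.28), ALK (-0.91), ERBB3 (-0.84) and FGFR3 (-0.71) fell. That is 6 higher and 6 lower of 22, against 12.6% and 12.5% of all genes. All 12 passed the same way in DMSO, as did 66.3% of all genes that passed under CPI203. Of 15 ligands of such receptors 9 rose, among them VEGFC (1.42), PDGFA (1.30), GAS6 (1.08), FGF2 (1.07), HBEGF (0.95) and NRG1 (0.88), and 3 fell: EFNA1 (-1.27), AREG (-1.09) and EFNB2 (-0.56). The median of the ligands was 0.58.

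Downstream of these receptors the immediate early genes split. FOSL1, a subunit of the transcription factor AP-1, was at 438 and 442 FPKM against 103 and 112 (2.02 ± 0.09, adjusted p = 5.95e-09, limma). FOS, another subunit, was at 11.6 and 10.5 against 45.8 and 40.5 (-1.88 ± 0.14, adjusted p = 7.46e-07). EGR1 (-1.77), EGR3 (-1.39) and NR4A1 (-1.03) fell and KLF2 rose (1.90). In all 6 were higher and 7 lower of 21, against 12.6% and 12.5% of all genes. Of 20 genes read as output of the ERK pathway 7 rose and 5 fell, and 2 to 4 fell with 1 library left out. CCND1, the cyclin of early G1, was at 309 and 306 FPKM against 142 and 141, while DUSP6 (-0.71), a phosphatase of ERK, and PHLDA1 (-0.90) were lower. The FOS difference between the CPI203 and DMSO comparisons (-0.97, adjusted p = 0.0415) did not pass in 6 of 8 omissions of a library.

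Some cytokine and interferon genes, CXCL1 and IFIT2 among them, were further apart under the inhibitor than in DMSO. Of the genes that passed under CPI203, 8 of 10 in the cytokine list and 12 of 15 in the interferon list passed the same way in DMSO. The share over all genes that passed under CPI203 was 66.3%. CXCL1, a neutrophil chemokine, was at 51.2 and 48.1 FPKM in clone 1 and 7.50 and 8.19 in parental cells (2.52 ± 0.13, adjusted p = 1.52e-08, limma). In DMSO it was at 30.9 and 34.3 against 21.8 and 18.1 (0.68) and untreated at 44.7 and 44.7 against 44.6 and 43.3 (0.02, adjusted p = 0.898), so the parental level moved most across conditions, as with LIF. The difference between the CPI203 and DMSO comparisons was 1.84 ± 0.18 (adjusted p = 0.000232). CCL5 rose from 0.0457 and 0.0456 to 6.19 and 6.03 FPKM (2.77), and did so in DMSO (2.65). IL11 (-1.99), ICAM1 (-1.28) and TRAF1 (-1.28) fell, and TRAF1 was further apart in DMSO (-4.04) and untreated (-5.16). In this list 5 of 22 were higher and 5 lower, against 12.6% and 12.5% of all genes. The interferon-induced genes OASL (2.19), IFIT2 (2.16), IFIT1 (1.51) and DDX58 (1.34) rose, and ISG20 (-1.48) and IRF7 (-1.15) fell, 10 higher and 5 lower of 26. IFIT2 was at 4.62 and 4.99 FPKM against 0.331 and 0.272, and its difference of 1.47 ± 0.18 between the CPI203 and DMSO comparisons passed (adjusted p = 0.00121).

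Stress and metabolic programs were mixed, with a few members that stood out. Of 25 p53 targets 11 rose and 2 fell, against 12.6% and 12.5% of all genes. DDB2, which recognises ultraviolet damage, was at 40 and 41.6 FPKM against 14.8 and 15.5 (1.37 ± 0.11). MDM2, the ubiquitin ligase of p53, was at 57.3 and 61.4 against 33.8 and 32.4 (0.82 ± 0.11). CDKN1A, the p21 inhibitor of cyclin-dependent kinases, did not pass under CPI203 at 188 and 200 against 155 and 162 (0.29, adjusted p = 0.112, limma), but did in DMSO (1.22), and the difference of -0.93 passed (adjusted p = 0.0209) and was lost in 7 of 8 omissions of a library. In DMSO 16 of the 25 were higher and 1 lower, against 11.5% and 12.2% of all genes. Among heat shock genes 6 of 15 rose and 0 fell (9 and 0 at an unadjusted p below 0.05, and 2 to 4 higher with 1 of the 4 libraries left out), led by HSPA1A at 176 and 192 FPKM against 97.4 and 92.8 (0.95 ± 0.13). HSPA1A and its near-identical copy HSPA1B share reads. Of the 6 heat shock genes 1 passed the same way in DMSO, against 66.3% of all genes that passed under CPI203. HSPA5, the chaperone BiP, was at 422 and 452 against 305 and 300 (0.53), and lower in DMSO (-0.30).

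Antioxidant genes gave 9 higher and 5 lower of 27, and 5 to 7 higher with 1 library left out. FTH1, the ferritin heavy chain, was at 1051 and 1048 FPKM against 334 and 343 (1.63 ± 0.20, adjusted p = 4.97e-05, limma), HMOX1 rose by 1.23 and GCLM by 0.93. Glutathione transferases of the mu class fell, GSTM3 as given, GSTM1 by 2.96 and GSTM2 by 1.4, and reads of this family can be shared between copies. Hypoxia and glycolysis genes gave 10 higher and 3 lower of 30 (12.6% and 12.5% of all genes), with the glucose transporter SLC2A1 at 150 and 159 FPKM against 55.6 and 56.0 (1.45 ± 0.11), CA9, a carbonic anhydrase, at 7.97 and 7.85 against 0.743 and 0.595 (2.42 ± 0.17), and PFKFB4 at -1.95. In untreated cells the same list was 26 higher and 2 lower, against 17.3% and 29.4% of all genes. The aldo-keto reductases AKR1C2 (2.15) and AKR1C3 (2.13), which metabolise steroids and prostaglandins and are close copies of each other, rose, and the prostaglandin enzymes PTGES (-2.46) and PLA2G4A (-2.20) fell.

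The matrix and adhesion genes of clone 1 differed from those of parental cells in both directions and mostly alike in DMSO. THBS1, a matricellular glycoprotein, was at 425 and 424 FPKM against 107 and 106 (1.99 ± 0.18, adjusted p = 3.62e-06, limma), and MMP2, a gelatinase, at 90.1 and 90.0 against 17.7 and 17.9 (2.27 ± 0.07). VCAN (1.84) rose and BGN (-1.57) fell. Of 16 matricellular genes 7 rose and 8 fell. Of these 15, 14 passed the same way in DMSO, against 66.3% of all genes that passed under CPI203. Among integrins and laminins 3 of 20 rose and 6 fell, where 12.6% of all genes rose and 12.5% fell. LAMA4, a laminin chain, was at 30.3 and 30.9 FPKM against 126 and 130 (-2.03 ± 0.16), and ITGB3, of the vitronectin receptor, at 33.6 and 34.1 against 128 and 136 (-1.93 ± 0.35). Both were separate without overlap, as was ITGA3 (1.08) upward. SNAI2, a repressor of epithelial genes, was at 0.101 and 0.107 against 5.95 and 5.71 (-2.63 ± 0.08), and the adhesion gene CDH13 rose (1.42).

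Activin and its antagonist fell together with other genes of the TGF-β family. INHBA, the activin A subunit, was at 21.0 and 22.8 FPKM in clone 1 and 86.7 and 86.0 in parental cells (-1.93 ± 0.28, adjusted p = 0.000227, limma). FST, follistatin, which binds activin, was at 5.2 and 4.37 against 22.7 and 21.2 (-1.99 ± 0.13, adjusted p = 1.45e-07). Of 27 measured genes of this family 11 fell, BAMBI (-1.30) among them, and 3 rose: NOG (2.34), SMAD7 (1.08) and SMAD6 (0.70). Their median was -0.23, and 12.5% of all genes fell and 12.6% rose. In DMSO INHBA (-1.47) and FST (-2.37) were also lower, and neither differed between the comparisons by the test.

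Of 13 measured melanocyte lineage genes 6 fell and 2 rose, and of 13 keratins and junction genes 8 rose and 2 fell, against 12.5% of all genes lower and 12.6% higher. SOX10, the transcription factor of neural crest and melanocytes, was at 155 and 160 FPKM against 248 and 258 (-0.68 ± 0.11, adjusted p = 0.000632, limma). S100B was at 20.5 and 20.9 against 60.5 and 58.9 (-1.49 ± 0.17), and CSPG4 (-1.66) and EDNRB (-1.38) fell. MITF was at 9.19 and 9.12 against 16.1 and 15.4 (-0.72, adjusted p = 0.0263). SOX9 rose from 0.0208 to 2.25 FPKM in the mean (1.67) and MCAM by 1.03. Neither lower call among the keratins and junction genes held with any 1 of the 4 libraries left out. KRT80 was at 11 and 10.7 FPKM against 0.377 and 0.527 (3.03 ± 0.08), and PKP2 (2.54), KRT7 (1.98), KRT81 (1.6) and KRT14 (1.5) were higher. The summed level of 9 epithelial markers was 146 to 147 FPKM in clone 1 and 99.2 to 103 in parental cells. No marker was at 0 in all 4 libraries, but EPCAM, CDH1 and KRT19 were at 0 in both parental ones. EPCAM, CDH1, KRT5, KRT19 and CDH3 were under 1 FPKM in all 4 libraries. Leukocyte markers summed to 29.3 FPKM in clone 1 and 17.3 to 17.9 in parental cells, from LYZ (1.11) and CD68 (0.54), with PTPRC, CD3E, MS4A1, CD14 and SPI1 under the filter. In these bulk libraries a lower level in fewer cells and less RNA in every cell cannot be told apart.

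**Figure D4:**
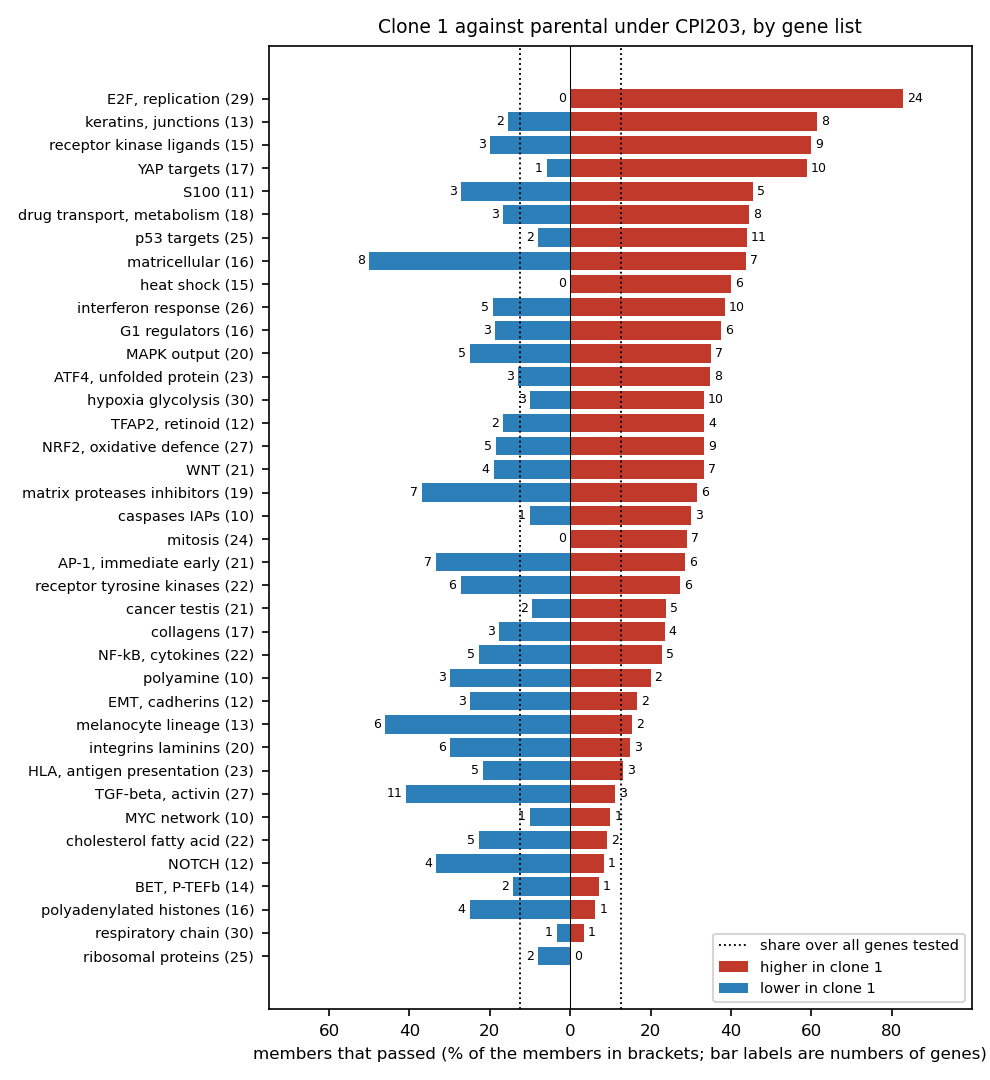
Percentage of the measured members of each gene list that were higher or lower in clone 1 under CPI203, with dotted lines at the 12.6% higher and 12.5% lower of all genes tested. The replication list reaches 24 of 29 higher with 0 lower, while most lists hold members in both directions.

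The test of the difference between the CPI203 and DMSO comparisons passed for 173 genes, 111 upward and 62 downward, and for 78 to 179 with 1 of the 8 libraries left out (78 without parental CPI203 replicate 1). Because it shares libraries with the CPI203 comparison, its values are given side by side with the levels. Of the 6 largest positive differences 4 belonged to genes at or near 0 in clone 1, which on the log2(FPKM + 1) scale can hardly fall further, so a lower parental level alone gives a positive difference. Of the 111 upward genes 24 averaged under 1 FPKM in clone 1 in both conditions. TFAP2B, a transcription factor of the AP-2 family, was at 45.8 and 58.8 FPKM in parental DMSO cells and 4.10 and 3.72 under CPI203, while clone 1 had at most 0.333 in either. The difference was 3.07 ± 0.15 (adjusted p = 3.57e-07, limma). As a ratio of mean FPKM without a pseudocount, however, TFAP2B was 13.4-fold lower under CPI203 in parental cells and 11.7-fold lower in clone 1, folds that are close to each other and were not tested. TRAF1, an adaptor of tumour necrosis factor receptors, was at 33.2 and 32.0 against 2.27 and 1.96 in parental cells and at most 1.11 in clone 1 (2.75 ± 0.12), which is 15.4-fold and 3.78-fold lower. PTGES (2.66) and the retinoid receptor RXRG (2.54) did likewise, with clone 1 levels of at most 0.468 FPKM in both conditions, and RXRG, 9.27-fold lower in parental cells and 8.8-fold lower in clone 1, did not pass with a pseudocount of 0.1 (1.33). LIF differed in another way, since its clone 1 level was high in both conditions (2.40 ± 0.17, adjusted p = 1.38e-05), and AC004510.2 was at 5.01 and 6.98 FPKM in clone 1 in DMSO and 42.2 and 43.1 under CPI203 (2.65 ± 0.36).

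Among the negative differences, SAT1, the spermidine acetyltransferase that sends polyamines to breakdown, was at 223 and 213 FPKM in treated parental cells and 56.2 and 53.1 in treated clone 1 (-1.98 ± 0.11). In DMSO the lines were at 36.2 and 33.1 against 25.1 and 25.4, so both were higher under CPI203 and the parental line more so (difference -1.54 ± 0.16, adjusted p = 0.000347, limma). DKK1, a secreted WNT antagonist, was higher in clone 1 in both conditions. Under CPI203 it was at 44.0 and 42.0 FPKM in parental cells and 187 and 183 in clone 1. In DMSO it was at 6.6 and 7.87 in parental cells and 99.0 and 103 in clone 1, further apart than under CPI203 (difference -1.56 ± 0.20). TNFRSF11B, the decoy receptor osteoprotegerin, was at 7.09 and 7.17 FPKM in treated parental cells and 1.21 and 1.08 in treated clone 1 (-1.64 ± 0.16). GPR110 (-1.93) and C15orf54 (-1.49) did not pass with a pseudocount of 0.1 (both -0.90), and their mean FPKM was 6.75-fold and 5.89-fold lower under CPI203 in parental cells and 9.86-fold and 7.09-fold lower in clone 1.

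Opposite calls in the 2 conditions were few, and the largest of the 14 was MMP1, interstitial collagenase. It was at 3.43 and 3.78 FPKM in clone 1 and 9.83 and 9.88 in parental cells under CPI203 (-1.24), but at 2.23 and 2.02 against 1.39 and 1.28 in DMSO (0.42), with a difference of -1.66 ± 0.18 (adjusted p = 0.000347, limma). NFKBIZ, a nuclear IκB protein, was lower under CPI203 (-0.77) and higher in DMSO (0.71), and SHISA2 went from 0.76 in DMSO to -0.44. CXXC5, with 0.41 under CPI203 and -0.56 in DMSO, NRCAM (0.38 and -0.38) and PTP4A1 (-0.36 and 0.36) had smaller differences, and each of these 3 and SHISA2 lost the CPI203 call with at least 1 library left out.

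Fewer genes passed against the other tolerant clone under the same treatment than against parental cells. Against clone 4, 528 genes were higher in clone 1 (3.46%) and 569 lower (3.73%), and of the 3829 genes that separated clone 1 from parental cells 388 (10.1%) differed from clone 4 in the same direction and 226 in the opposite one. The total of 1097 was 403 or 419 without clone 1 replicate 1 or 2, and 3161 without the 3 libraries that stand apart. With only the 4 libraries of this comparison in the fit 102 genes passed, 98 of the 1097 among them, so most calls here rest on the spread of other groups. The comparisons with clone 4 and with parental cells share the clone 1 libraries. MAGEA1, a cancer-testis antigen, was at 16.6 and 16.5 FPKM in clone 1, 1.01 and 0.761 in clone 4 and 7.55 and 7.39 in parental cells (3.22 ± 0.11 against clone 4, adjusted p = 3.49e-09, limma). TGFBI, a matrix protein, was at 96.2 and 96.8 in clone 1, 10.2 and 11.7 in clone 4 and 56.2 and 57.4 in parental cells (3.03 ± 0.11). In both genes the clones lay on opposite sides of the parental level. COL5A1 (2.48), NDN (2.41), FAM20C (2.08) and COL6A2 (1.87) were the next higher. IL24, a cytokine of the interleukin-10 family, was at 17.6 and 17.3 FPKM in clone 1 and 141 and 145 in clone 4 (-2.97 ± 0.11), and GSTM3 (-5.08), GSTM1 (-3.51) and KRT81 (-3.30) were also lower in clone 1, as were CTD-2130O13.1 (-1.59) and ISG20 (-1.58). By lists, 0 of 26 interferon genes were higher and 8 lower in clone 1 than in clone 4 (0 and 12 at an unadjusted p below 0.05). Of the 23 ATF4 and unfolded protein response genes 1 was higher and 10 lower.

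By genome position the genes lowered in clone 1 were unevenly spread. This pattern was chosen for description after its values were seen. Of 1562 members on chromosome 1, 582 were lower under CPI203 (37.3%) and 97 higher (6.21%), with a median of -0.28. On all other chromosomes together 1325 of 13681 were lower (9.68%) and 1825 higher (13.3%), with a median of 0.03. The next highest shares of lower genes were 16.1% on chromosome 13 and 13.1% on chromosome 12. In DMSO 540 chromosome 1 genes were lower (34.6%, median -0.26) and in untreated cells 804 (51.5%, median -0.40, where the rest had -0.08; -0.30 and 0.03 with the length and GC correction), each from other libraries. For the difference between the CPI203 and DMSO comparisons the chromosome held 14 higher and 13 lower genes, with a median of 0.00.

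Along chromosome 1 the shift was present in windows of 20 Mb on both arms, except between 80 and 100 Mb. From 0 to 80 Mb of hg19, 44.6 to 52.2% of members were lower in each window and the medians were -0.42 to -0.34. Between 80 and 100 Mb 11 of 76 were lower (14.5%) and 13 higher, with a median of 0.03. The window from 100 to 120 Mb had 53 of 107 lower (49.5%, median -0.44), that from 120 to 140 Mb 7 of 14, and from 140 Mb to the end the shares were 23.9 to 31.6% with medians of -0.235 to -0.12. Against clone 4 the medians were 0.02 to 0.15 in the 4 windows up to 80 Mb and -0.37 to -0.19 in every window from 100 Mb on. Several of the lower genes named above lie on chromosome 1, including S100A1, SPRR2D, GSTM3, DHRS3 and MCL1. EPHA2, SLC2A1 and CYR61 lie on the same chromosome and were higher in clone 1.

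**Figure D5:**
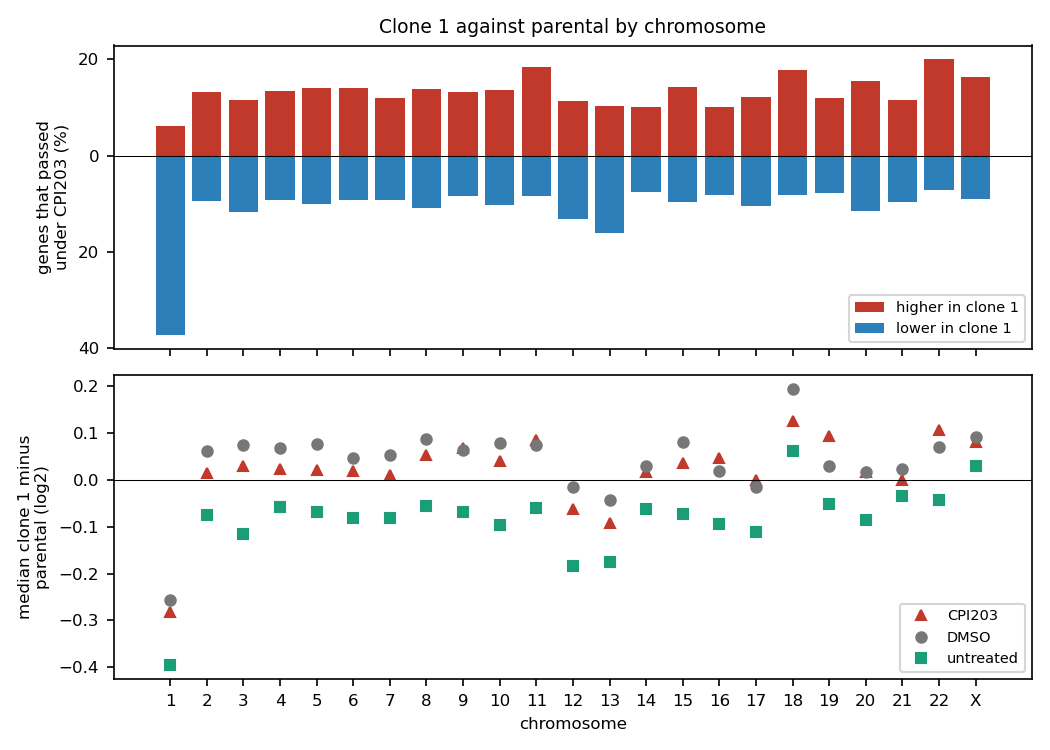
Percentage of members higher and lower in clone 1 under CPI203 on each chromosome, and the median log2 difference on each chromosome under CPI203, in DMSO and untreated. Chromosome 1 has 37.3% lower and the lowest median under CPI203 (-0.28), and the other chromosomes drawn lie between 7.08% and 16.1% lower.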

How the data were processed

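RNA sequencing libraries of A375 cells were used, 2 per group. Per the submitters' processing notes, the authors aligned reads to hg19 with TopHat 1.4.1 and estimated FPKM per gene with Cufflinks. Not given in the sources used here are Cufflinks version and options, annotation and strandedness. This deposited table holds FPKM, hg19 coordinates and no read counts, so the depth is unknown and fragments shared between copies of a gene may be split.

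Groups were taken from the titles. Values were put on a log2 scale as log2(FPKM + 1). Genes that reached 1 FPKM in 2 or more of the 4 compared libraries entered a limma 3.58.1 model (R 4.3.3, trend and robust options, a mean for each of the 9 groups of the 18 A375 libraries, 9 residual degrees of freedom). Tests are two-sided and adjusted over 15243 genes by the Benjamini-Hochberg method. Comparisons are clone 1 against parental cells under CPI203, in DMSO and untreated, the difference between the first and second of these, and clone 1 against clone 4 under CPI203. The model was tested on simulated data.

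Members, the 49 gene lists and the fixed genes were chosen with earlier results of these data known. Named are the 12 largest rises and 12 largest falls whose higher group averaged 5 FPKM or more without overlap, fixed BET, BCL2 and cell cycle genes, up to 4 members of each list by the smallest adjusted p, the 6 largest differences of effect each way, 6 genes with opposite calls in DMSO, and the 6 largest differences from clone 4 each way. Further list members were named after their values were seen. Promoters come from RefSeq (GRCh38.p14), matched through the gene symbol. Transcript length and GC content came from GENCODE release 29 and were available for 97.4% of genes. Alternatives were other pseudocounts, filters, scalings, library weights, limma without the trend and robust options, a replicate block, fewer libraries and a minimum difference. The lists without the 3 libraries that stand apart, chromosome 1 under each setting, and ratios of mean FPKM without a pseudocount, were added after seeing the data. Some genes of the fixed lists are not reported here.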

Additional observations from a re-analysis of the deposited data

Results flagged for a closer look

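The effect of CPI203 against DMSO differed between clone 1 and parental cells, by the test of the difference itself, in 173 genes. Named among these are the 6 largest differences in each direction, as log2 of FPKM + 1 and positive where the effect was more upward in clone 1. They were TFAP2B (3.07), TRAF1 (2.75), PTGES (2.66), AC004510.2 (2.65), RXRG (2.54) and LIF (2.40) upward, and GPR110 (-1.93), MMP1 (-1.66), TNFRSF11B (-1.64), DKK1 (-1.56), SAT1 (-1.54) and C15orf54 (-1.49) downward. As ratios of mean FPKM without a pseudocount, with no test, parental cells and clone 1 were 13.4-fold and 11.7-fold lower under CPI203 for TFAP2B, 9.27-fold and 8.8-fold for RXRG, 6.75-fold and 9.86-fold for GPR110 and 5.89-fold and 7.09-fold for C15orf54, and RXRG, GPR110 and C15orf54 did not pass with a pseudocount of 0.1 (1.33, -0.90 and -0.90). Without the 3 libraries that stand apart, 1 of them from parental DMSO cells, 603 genes passed.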

How the results depend on the processing

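No gene that passed under CPI203 passed in the opposite direction in any alternative run. In runs that alter only the test, the weights or libraries outside the comparison, the direction of a difference cannot change. The 3829 genes that differed under CPI203 became 8334 with library weights per group, 8162 with only the compared libraries in the fit, 7132 without the 3 libraries that stand apart and 824 at an absolute difference of at least 1, and 2269 to 2376 with 1 library left out. In DMSO 3622 became 1812 with only the compared libraries, 5648 without the 3, 822 at a difference of at least 1, and 2321 to 3549 with 1 library left out. For untreated cells 7131 became 2026 at a difference of at least 1. The share of these that were higher, 37.1%, was 50.2% after quantile normalization, 48.6% with median-ratio scaling and 49.9% with the length and GC correction. The difference in CPI203 effect passed in 173 genes and in 109 with a pseudocount of 0.1, 409 with no filter, 87 with a filter at 5 FPKM, 324 with the filter over 18 libraries, 406 with the length and GC correction, 98 with only the compared libraries, 603 without the 3, 72 at a difference of at least 1, and 78 to 179 with 1 library left out. Against clone 4, 1097 became 1899 with the length and GC correction, 102 with only the compared libraries, 3161 without the 3, 115 at a difference of at least 1, and 403 to 798 with 1 library left out. Fewer libraries leave fewer degrees of freedom, but the counts rose in some of these runs and fell in others. The causes of these changes were not tested.

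The main fit did not treat replicate numbers as pairs. Deviations of same-numbered libraries correlated at 0.018 between parental and clone 1 cells under CPI203. Over all pairs of A375 groups the correlations were -0.736 to 0.74, the highest between parental and clone 4 cells in DMSO. Some groups thus shared deviations, in both directions, and the cause was not tested. With the replicate number as a block 3753 genes passed under CPI203, 3550 in DMSO, 7001 untreated, 146 for the difference and 1066 against clone 4.

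The replication genes higher under CPI203 numbered 22 to 25 of 29 with 3 other scalings and 25 without the 3 libraries. For chromosome 1 the CPI203 median was -0.312 to -0.279 over 17 settings, against 0.022 to 0.044 for the other chromosomes. Many of these settings alter only the test, the weights, libraries outside this comparison or genes outside the members. They cannot move these medians, which stayed at -0.283 and 0.033. Chromosome 1 was at -0.312 with a pseudocount of 0.1, -0.303 with quantile normalization and -0.279 with the length and GC correction. With 2 libraries per group and an unknown depth, small differences and genes near 1 FPKM are the least certain.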

Other observations

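Drug transport and drug metabolism genes gave 8 higher and 3 lower of 18 measured members under CPI203, against 12.6% and 12.5% of all genes. The lipid transporters ABCA3 (1.61) and ABCG1 (1.38) and the multidrug transporter ABCC3 (1.42) were higher in clone 1 (adjusted p = 8.39e-08, 9.25e-08 and 6.75e-05, limma), and CYP1B1, a cytochrome P450, was lower (-0.92). ABCB1, the P-glycoprotein pump, was higher by 0.52. Among 12 Notch pathway genes the targets HEY2 (-1.25), HEY1 (-1.28) and HES1 (-0.87) and the receptor NOTCH2 (-1.25) were lower and HES7 was higher (1.65).

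Cholesterol and fatty acid synthesis gave 2 higher and 5 lower of 22, with IDI1 at -0.65 and SQLE at 0.37. Collagens gave 4 higher and 3 lower of 17, led by COL13A1 (2.69) and COL5A1 (2.07). Of 21 measured WNT genes 7 were higher and 4 lower, WNT9A (-1.44) among the latter, and of 23 HLA and antigen presentation genes 3 were higher and 5 lower. Of 30 respiratory chain genes 1 was higher and 1 lower, against 12.6% and 12.5% of all genes, and of 25 ribosomal protein genes 0 were higher and 2 lower. Without the 3 libraries that stand apart these became 9 higher and 6 lower, and 1 higher and 9 lower. Of 16 polyadenylated histone genes 1 was higher and 4 lower, where 13 were higher and 0 lower in untreated cells (17.3% and 29.4% of all genes). Without the 3 libraries 8 histone genes were lower under CPI203. With 1 of the 4 libraries left out, 5 to 7 drug transport genes, 4 to 5 WNT genes and 0 to 1 antigen presentation genes were higher, and 3 to 4 cholesterol genes, 2 antigen presentation genes, 1 to 2 collagens and 1 histone gene were lower.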
